A study of Mus musculus with 8 samples.

Results

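The genes of the amino acid response, led by the transcription factor gene Atf4, were examined in sorted haematopoietic cells from mice with and without a Jmjd6 deletion. The 38 genes were chosen by name, as regulators of the response, enzymes of serine, glycine, one-carbon and proline synthesis, amino acid transporters, transfer RNA synthetases and other known targets. All 38 were among the 26146 gene symbols of the count table. Of these, 34 passed the filter on low counts and were tested among 13439 genes, and Chac1, Cth, Aldh1l2 and Slc7a11 did not pass. RNA came from Lin-Sca1+Kit+ (LSK) cells, the bone marrow fraction that holds stem cells and early multipotent progenitors, with 1 library per mouse, 4 wild type and 4 KO. In the KO mice a Cre recombinase specific to a cell type, whose driver is not named in the labels, deleted a floxed Jmjd6, which encodes a JmjC-domain oxygenase, in the haematopoietic lineages. Whether the wild type mice carried the floxed allele or the Cre, and the age, sex and strain of the animals, is not stated in these sources.

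Cells that lack an amino acid, fold proteins poorly or meet other stresses phosphorylate the translation factor eIF2, through the kinases GCN2 (Eif2ak4), PERK (Eif2ak3), PKR and HRI. General translation then slows, while translation of Atf4 messenger RNA increases. ATF4 pairs with C/EBP family proteins and switches on genes that make, import and charge amino acids, and with longer stress the factor CHOP (Ddit3) is induced. Atf4 is thus controlled largely at translation, which RNA counts do not measure. In blood stem cells this pathway is known for its part in the response to proteotoxic stress.

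ATF4 with its C/EBP partners binds a composite element whose core is often written as TGATGNAA. The 250 bases before the annotated start of each gene were searched for it on both strands (RefSeq, GRCm38.p6, the assembly that mm10 names), with no other motif searched. An entry was matched for 31 of the 38 genes, and those of Cth, Aldh1l2, Slc7a5, Slc1a5, Wars, Nars and Mars had none. The element was present before 8 of the 31 genes (25.8%), against 1056 of 27025 genes with a promoter entry (3.9%) and 253 of the 10303 that were tested (2.5%). The sequences of 7 of the 8 are shown, since the list is built around the response to ATF4. Each is given from 5′ to 3′ on the strand of its gene with the match in capitals, and a match written as the reverse complement, TTNCATCA, lies on the other strand.
Asns, chr6:7693214-7693243, minus strand: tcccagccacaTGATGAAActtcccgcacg
Pycr1, chr11:120643833-120643862, minus strand: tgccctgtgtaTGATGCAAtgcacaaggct
Chac1, chr2:119351038-119351067, plus strand: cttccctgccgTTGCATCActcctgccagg
Nupr1, chr7:126625562-126625591, minus strand: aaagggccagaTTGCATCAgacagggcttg
Slc7a11, chr3:50443642-50443671, minus strand: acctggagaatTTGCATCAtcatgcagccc
Vldlr, chr19:27216809-27216838, plus strand: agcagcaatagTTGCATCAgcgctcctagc
Gars, chr6:55037960-55037989, plus strand: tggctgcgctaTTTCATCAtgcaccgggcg

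Slc7a11 holds a further match beside the one shown. A match is a description of letters, not of binding. Among the 7 windows shown, those of Asns, Nupr1 and Vldlr lie within an exon of the GENCODE M21 annotation. Across all tested genes with a promoter entry, those with the element had a median log2 fold change of -0.02 in KO against wild type (114 of 253 above 0, 45.1%), and the 10050 without it had a median of 0.00 (49.3% above 0).

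Total counts ranged from 9344779 to 15079960 per library. Levels are given as CPM, gene counts relative to the TMM-adjusted library size, with the SD over 4 mice. Jmjd6, the targeted gene, stood at 52.5 to 63.7 CPM in the wild type libraries and at 27.5 to 30.7 CPM in the KO libraries (log2 fold change -1.03, adjusted p = 0.0381 by edgeR). The gene total does not separate exons inside and outside the deleted part. Jmjd6 also shares 172 exonic bases with Mettl23 on the opposite strand, a gene with 7723 counts in all against 4344 for Jmjd6. The LSK genes Kit (416 to 508 CPM) and Cd34 (1140 to 1420 CPM) were abundant in all 8 libraries, and Ly6a, which encodes Sca1, ranged from 86.1 to 227 CPM. The T cell genes Cd3e, Cd3d, Cd3g and Trac reached no more than 0.381 CPM. Granulocytic markers summed to 5400 CPM in wild type replicate 1 and to between 987 and 2410 CPM in the other 7 libraries. KO replicate 3 was the highest library for 24.5% of tested genes and the lowest for 27.7%, more often than any other library. Wild type replicate 4 and KO replicate 3 had no counts of the Y-linked genes examined.

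No gene of the amino acid response passed an adjusted p of 0.05 by edgeR, 0 of 34, where 8 of all 13439 tested genes did (0.0595%). The lowest adjusted p among the 34 was 0.688, for Pycr1. At an unadjusted p under 0.05 there were 3 genes, Psat1, Shmt1 and Pycr1, each higher in KO; they are 8.82% of the 34, against 6.06% of all tested genes and 2.78% for higher values in KO alone. The same 3 were the genes whose KO and wild type libraries did not overlap, against 4.19% of all tested genes in either direction and 2.08% with KO higher. Counted in either direction, the share at an unadjusted p under 0.05 is close to that of all genes (8.82% against 6.06%). For KO higher alone it is 8.82% against 2.78%, and rests on 3 genes. No share of the list was tested. Without wild type replicate 3 only Pycr1 was left, and without KO replicate 3 the 3 genes were Psat1, Pycr1 and Phgdh. Without wild type replicate 1 they were Psat1, Pycr1 and Trib3, the last lower in KO. DESeq2 and limma voom also called 0 of the 34. At an unadjusted p under 0.05 DESeq2 had 3 genes, where 6.8% of all genes passed, and limma voom had 4, where 9.96% did, with Trib3 as the 1 lower in KO. The median log2 fold change was 0.10, with 22 of 34 above 0 (64.7%), beside 0.00 for all tested genes, of which 49.6% were above 0.

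**Figure D1:**
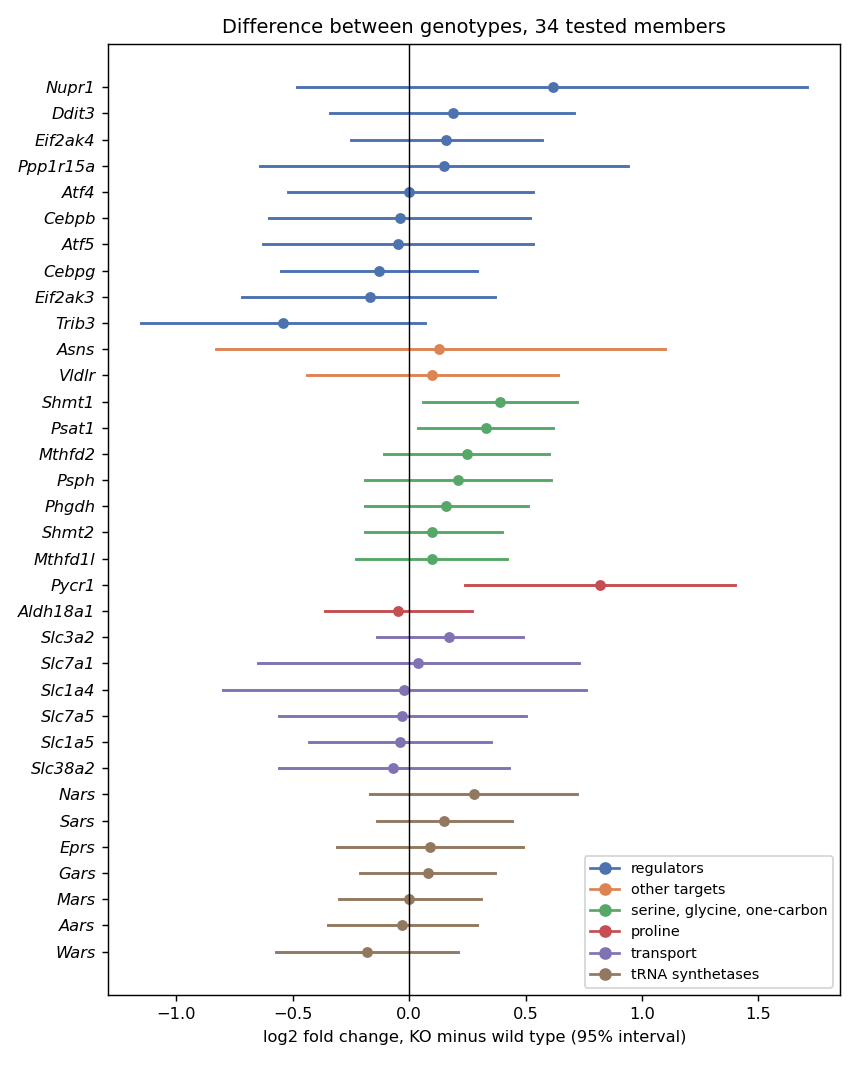
Log2 fold change of the 34 tested genes (points) with its 95% interval from the edgeR fit (lines), KO minus wild type, coloured by role. The intervals of Shmt1, Psat1 and Pycr1 lie above 0 before adjustment for the number of genes tested, and the other 31 include 0.

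The regulators showed no difference beyond the spread between mice. Atf4 (chromosome 15, 80255184 to 80257541, plus strand), the central activator, stood at 179, 194, 176 and 137 CPM in wild type replicates 1 to 4 and at 224, 206, 91.1 and 167 CPM in KO replicates 1 to 4. The KO group held both the highest values, in replicates 1 and 2, and the lowest, in replicate 3. The means were 171 ± 24.2 and 172 ± 58.8 CPM (SD, n = 4), with a log2 fold change of 0.00 (SE 0.242, 95% interval -0.52 to 0.53, adjusted p = 0.998 by edgeR). A two-sided exact permutation test gave p = 0.886, where 0.0286 is the smallest that 4 against 4 can give. Without KO replicate 3 the log2 fold change was 0.22 (adjusted p = 0.852 by edgeR), and limma voom, which weights libraries by quality, gave 0.24 (adjusted p = 0.654).

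Ddit3, which encodes CHOP, had 29.0, 15.6, 30.2 and 28.1 CPM in wild type mice and 29.1, 33.4, 33.4 and 21.4 CPM in KO mice. Wild type replicate 2 was the lowest of the 8, and the groups overlapped (log2 fold change 0.19, adjusted p = 0.891 by edgeR). Ddit3 shares 68 exonic bases with Mars on the opposite strand, and whether reads were counted by strand is not stated. Trib3, a pseudokinase gene that ATF4 and CHOP induce and whose product restrains them, had the lowest p of the regulators, 0.0797 before adjustment (adjusted p = 0.832 by edgeR). Its values were 7.84, 18.8, 11.8 and 11.7 CPM in wild type mice and 8.62, 7.10, 8.77 and 10.1 CPM in KO mice. Wild type replicate 1 lay within the KO range and the other 3 above it, with a log2 fold change of -0.54. It was -0.27 without wild type replicate 2 (unadjusted p = 0.335 by edgeR), -0.68 without wild type replicate 1 (unadjusted p = 0.0245) and -0.57 by limma voom (unadjusted p = 0.0349, adjusted p = 0.460).

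Among the other regulators, Nupr1, a small stress-induced chromatin protein gene, was low, at 2.83 ± 1.78 CPM in the wild type mice and 4.37 ± 1.87 CPM in KO (SD, n = 4). Its log2 fold change of 0.62 had a wide interval, -0.48 to 1.71, and was 0.27 without KO replicate 3, 0.33 without wild type replicate 1 and 1.02 without wild type replicate 4. Atf5, a related factor also controlled at translation, stood at 6.64 ± 0.344 and 6.40 ± 1.64 CPM (log2 fold change -0.05). The C/EBP partner genes Cebpb and Cebpg gave -0.04 and -0.13. Ppp1r15a, which encodes GADD34, the subunit that directs a phosphatase to eIF2 and so ends the response, gave 0.15 and ranged from 56.8 to 209 CPM across the 8 libraries. The kinase genes Eif2ak3 and Eif2ak4 gave -0.17 and 0.16. Of the 10 regulators 5 lay above 0 and 5 below, with a median of -0.02.

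Asns, which makes asparagine and is a standard readout of ATF4, differed more between mice of one genotype than between genotypes. Asns (chromosome 6, 7675169 to 7693254, minus strand) had 37.2, 13.2, 14.8 and 36.4 CPM in wild type mice and 19.9, 24.9, 52.5 and 13.9 CPM in KO mice. The high libraries were wild type replicates 1 and 4 and KO replicate 3, and the low ones wild type replicates 2 and 3 and KO replicate 4, so both groups held high and low libraries. The highest value, in KO replicate 3, was 3.99 times the lowest, in wild type replicate 2. The means were 25.4 ± 13.2 and 27.8 ± 17.1 CPM (SD, n = 4; log2 fold change 0.13, 95% interval -0.83 to 1.10, adjusted p = 0.958 by edgeR). The exact permutation p was 0.886, two-sided. The sign of the Asns difference rested on single libraries, with -0.38 without KO replicate 3 and 0.39 without wild type replicate 1.

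The libraries high in Asns were not those high in Atf4 RNA: KO replicate 3 had the highest Asns and the lowest Atf4. Ppp1r15a was also highest in KO replicate 3, at 209 CPM, and next in wild type replicate 4, at 181 CPM, but lowest in wild type replicate 1, at 56.8 CPM. These libraries, KO replicate 3 and wild type replicate 4, were those without counts of the Y-linked genes examined. Each was the highest of its genotype for Ppp1r15a and the lowest for Atf4, at 91.1 and 137 CPM. Asns was high in both but also in wild type replicate 1, which had Y-linked counts. Whether sex had a part in these values was not tested. Slc7a1, the transporter of arginine and lysine, had its 2 lowest values in wild type replicate 2 and KO replicate 4, at 18.1 CPM each, where Asns was also low. Wild type replicate 1 had the highest sum of granulocytic markers (5400 CPM) and of erythroid markers (1620 CPM), and KO replicate 3 the next highest of both (2410 and 1070 CPM). Wild type replicate 4, also high in Asns, had sums of 1210 and 1010 CPM. KO replicate 4, low in Asns, had 1830 and 1010 CPM, so the sums did not follow Asns in every library. The part of such cells in the level of Asns was not tested, and in bulk RNA a change in the share of a cell type and a change in RNA per cell cannot be told apart.

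**Figure D2:**
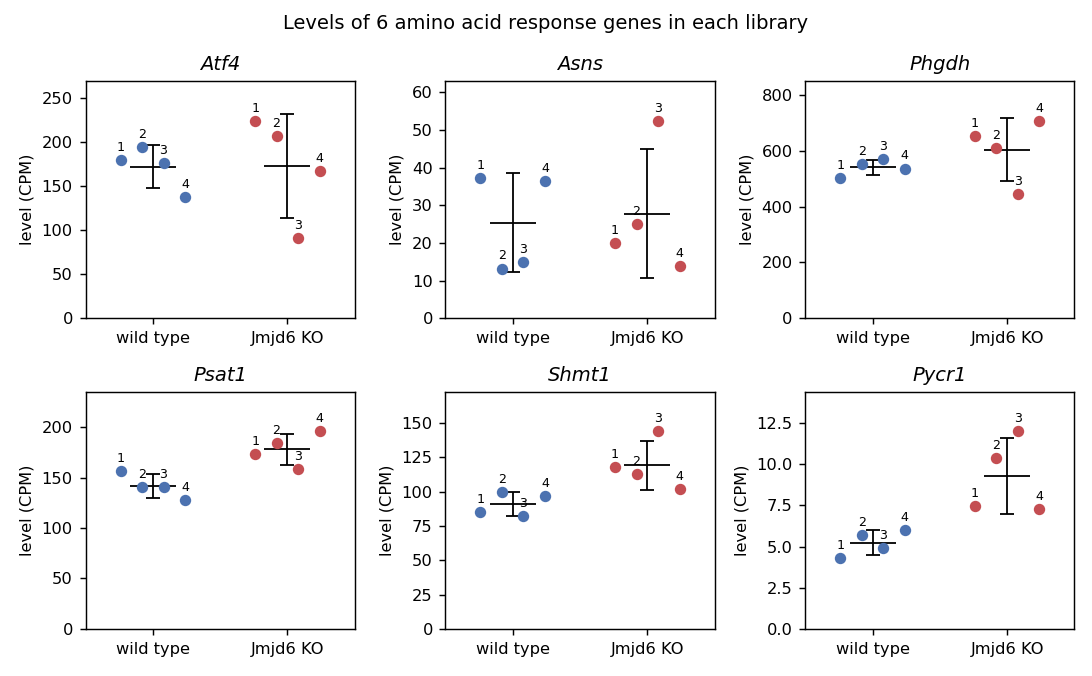
Level of 6 genes in each library, in CPM on axes that start at 0; numbers beside the points are replicate numbers, and the bar and whiskers are the mean and SD of 4 mice. Atf4 and Asns overlap between genotypes, while Psat1, Shmt1 and Pycr1 do not.

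Of the other known targets, Vldlr, which encodes a lipoprotein receptor, had 73.9, 55.8, 107 and 90.2 CPM in wild type mice and 82.0, 103, 111 and 54.5 CPM in KO mice. The lowest value was in KO replicate 4 and the highest in KO replicate 3, so the groups overlapped (log2 fold change 0.10, adjusted p = 0.946 by edgeR). Chac1, a glutathione-degrading enzyme gene that responds strongly to ATF4 and CHOP, was hardly detected. Chac1 had 1, 11, 1 and 12 counts in wild type replicates 1 to 4 and 12, 1, 0 and 0 counts in KO replicates 1 to 4. Cth, which encodes the cystathionine lyase that makes cysteine, had a sum of 10 counts over the wild type mice and 4 over the KO mice. Differences in these 2 genes were not detectable at this depth.

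The genes of serine, glycine and one-carbon metabolism lay on the higher side in KO in all 7 tested cases, by small amounts. Their median log2 fold change was 0.21, with a range from 0.10 to 0.39, and 0 passed after adjustment. All 7 stayed above 0 under each of the 17 alternative settings run, though the single values moved. Psat1 (chromosome 19, 15904678 to 15947337, minus strand), which carries out the transamination step of serine synthesis, had 157, 141, 141 and 128 CPM in wild type mice and 173, 184, 159 and 196 CPM in KO mice. The lowest KO library, replicate 3, lay just above the highest wild type library, replicate 1. The means of Psat1 were 142 ± 11.8 and 178 ± 15.6 CPM (SD, n = 4), a ratio of 1.26 with a 95% interval from 1.03 to 1.54 (log2 fold change 0.33, SE 0.132, unadjusted p = 0.0282, adjusted p = 0.772 by edgeR). Leaving out each library in turn, Psat1 gave from 0.28 to 0.40, with an unadjusted p between 0.0123 and 0.0887.

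Shmt1 (chromosome 11, 60788104 to 60811718, minus strand), the cytosolic enzyme that interconverts serine and glycine, had 85.1, 100, 81.9 and 96.5 CPM in wild type mice and 118, 113, 144 and 102 CPM in KO mice. All 4 KO libraries lay above all 4 wild type libraries, with KO replicate 4 and wild type replicate 2 next to each other. The log2 fold change of Shmt1 was 0.39 (SE 0.151, unadjusted p = 0.0236, adjusted p = 0.772 by edgeR), and from 0.29 to 0.46 when each library was left out in turn, with an unadjusted p between 0.0127 and 0.074. Shmt1 shares 184 exonic bases with Smcr8 on the opposite strand. Its mitochondrial counterpart Shmt2 gave 0.10, from 210 ± 12.6 CPM in wild type mice to 225 ± 25.5 CPM in KO mice. The difference between the 2 enzymes was not tested.

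Phgdh, which encodes the first enzyme of serine synthesis, had 504, 553, 570 and 537 CPM in wild type mice and 652, 611, 445 and 709 CPM in KO mice. KO replicates 1, 2 and 4 lay above all wild type libraries and KO replicate 3 below them. The log2 fold change was 0.16 (95% interval -0.19 to 0.51, adjusted p = 0.870 by edgeR), and 0.28 without KO replicate 3, with an unadjusted p of 0.0443 and an adjusted p of 0.695. Phgdh has 9 pseudogene copies that match its transcript at 95% identity or more over at least 200 bases, and reads of these copies may not have been told apart. Psph, the last enzyme of serine synthesis, gave 0.21 and shares 452 bases with Cct6a on the opposite strand, a gene with 48532 counts in all against 4864 for Psph.

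The mitochondrial folate enzyme genes Mthfd2, a standard ATF4 target, and Mthfd1l gave 0.25 and 0.10. Mthfd2 averaged 24.9 ± 1.19 CPM over wild type and 29.6 ± 2.94 CPM over KO libraries (SD, n = 4; unadjusted p = 0.157, adjusted p = 0.833 by edgeR). Aldh1l2, which makes NADPH in the mitochondrial branch, had 22 counts in wild type and 39 in KO over 4 libraries each and was not tested. It shares 1056 exonic bases with D10Wsu102e on the opposite strand, a gene with 7604 counts in all against 61 for Aldh1l2. Removing the trend of log2 fold change with transcript length and expression level, a step added after seeing the data, took the median of the 7 genes from 0.21 to 0.14, with 7 of 7 still above 0.

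The 2 genes of proline synthesis gave log2 fold changes of 0.82 (Pycr1) and -0.05 (Aldh18a1). The difference between the 2 genes was not tested. Pycr1 (chromosome 11, 120635712 to 120643769, minus strand), which encodes the mitochondrial reductase of the last step, had 4.31, 5.72, 4.92 and 5.99 CPM in wild type mice and 7.48, 10.4, 12 and 7.28 CPM in KO mice. No KO library fell within the wild type range, and KO replicates 2 and 3 were the highest. Pycr1 went from 5.23 ± 0.767 to 9.28 ± 2.29 CPM (SD, n = 4), a ratio of 1.76 with a 95% interval from 1.18 to 2.64 (log2 fold change 0.82, SE 0.266, unadjusted p = 0.00978). The adjusted p over all genes was 0.688 with edgeR, 0.321 with DESeq2 and 0.234 with limma voom, and Pycr1 did not pass in any of the 3. Leaving out each library in turn gave 0.67 to 0.93, with an unadjusted p of at most 0.027. Pycr1 is a low gene, with 706 counts in all 8 libraries together, and its promoter holds the element shown above.

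Aldh18a1, which encodes the enzyme of the first steps of proline synthesis, averaged 104 ± 12.8 CPM over wild type and 101 ± 9.53 CPM over KO libraries (log2 fold change -0.05, adjusted p = 0.956 by edgeR). Of the genes around this pathway, Pycrl, a paralogue of Pycr1, gave 0.30, with values that overlapped between genotypes. Prodh, which begins proline breakdown, gave 0.31, and Aldh4a1, which completes it, gave -0.39. Ass1, the urea cycle enzyme that starts arginine synthesis, had 91.8, 78.4, 75.0 and 72.4 CPM in wild type mice and 115, 105, 81.2 and 161 CPM in KO mice (log2 fold change 0.54, unadjusted p = 0.0188, adjusted p = 0.772 by edgeR). Only KO replicate 3 lay within the wild type range of Ass1. Of the 11 proline and urea cycle genes outside the main list, Ass1 was the 1 with an unadjusted p under 0.05.

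Marker genes of other cell types stood beside these differences. Nkg7, a cytotoxic granule gene, ranged from 125 to 232 CPM in the wild type group and from 259 to 374 CPM in the KO group and made up nearly all of the T and NK marker sum (127 to 234 CPM and 261 to 379 CPM), while the CD3 genes and Trac were near 0. Of 9 tested granulocytic markers 4 lay above 0 and 5 below, from -1.76 for Elane to 1.28 for Camp, the 1 marker that was higher in all KO libraries (2.08% of all genes were), and the list's sum was 987 to 5400 CPM in wild type mice and 1560 to 2410 CPM in KO mice. Of 8 macrophage markers 1, Vsig4, was higher in all KO libraries (sums 119 to 211 and 131 to 252 CPM), and of 7 tested B and plasma cell markers 1, Cd79b (sums 402 to 642 and 443 to 981 CPM). Of 9 erythroid markers 1, Tspan33, was lower in all KO libraries (sums 928 to 1620 and 964 to 1070 CPM). Of the 10 LSK markers Slamf1 was higher and Hlf lower in all KO libraries. None of these markers passed after adjustment by edgeR, and their part in the values of Psat1, Shmt1 and Pycr1 was not tested.

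The amino acid transporters lay close to 0, with a median log2 fold change of -0.02 and a range from -0.07 to 0.17 over 6 tested genes. Slc3a2, the heavy chain that carries several transporters to the membrane, had the lowest p of them, with 153, 195, 169 and 198 CPM in wild type mice and 181, 189, 232 and 205 CPM in KO mice. KO replicates 3 and 4 lay above all wild type libraries and the other 2 within their range (log2 fold change 0.17, adjusted p = 0.849 by edgeR). Its partner Slc7a5, which imports leucine and other large neutral amino acids, gave -0.03. Slc7a1 gave 0.04 with a 95% interval from -0.65 to 0.73. The glutamine and neutral amino acid carriers Slc1a5, Slc1a4 and Slc38a2 gave -0.04, -0.02 and -0.07, and Slc38a2, which amino acid shortage is known to induce, ranged from 177 CPM in KO replicate 3 to 369 CPM in wild type replicate 3.

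Slc7a11, the cystine importer and another strong ATF4 target, had 3, 11, 21 and 5 counts in wild type and 14, 3, 1 and 4 counts in KO, too few to compare. Of 16 further transporter genes 15 were tested, 5 above 0 and 10 below, with a median of -0.18. None had an unadjusted p under 0.05. Slc1a3, a glutamate carrier, was the nearest, at 2.07 ± 0.824 CPM in wild type mice and 1.03 ± 0.405 CPM in KO mice (ratio 0.502, unadjusted p = 0.0546), and Slc36a1 and Slc25a22 gave -0.40 and -0.33.

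The 7 transfer RNA synthetases, which charge transfer RNAs with amino acids, differed by little. Their median log2 fold change was 0.08, with a range from -0.18 to 0.28, and 5 of 7 lay above 0. Nars, for asparagine, had 225, 228, 214 and 241 CPM in wild type mice and 232, 240, 416 and 214 CPM in KO mice. The difference of 0.28 (adjusted p = 0.833 by edgeR) came from KO replicate 3, without which it was 0.01. Gars, Sars, Aars, Mars, Eprs and Wars gave 0.08, 0.15, -0.03, 0.00, 0.09 and -0.18. The intervals of Aars, Gars, Mars and Sars were narrow, and the widest ends among them, -0.35 for Aars and 0.44 for Sars, bound their differences within a ratio of 0.786 to 1.35. Aars shares 1326 bases with Exosc6 on the same strand.

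The synthetase genes outside this list were similar in size. Of 13 further cytosolic synthetases 10 lay above 0 with a median of 0.11, and Kars, Rars and Tars gave 0.29, 0.28 and 0.28. Of 17 mitochondrial synthetases, which are not classical ATF4 targets, 14 lay above 0 with a median of 0.07. Rars2 and Nars2 gave 0.45 and 0.33, and Wars2 gave 0.29, with all KO libraries (21.9 to 27.9 CPM) above all wild type libraries (18.6 to 21.6 CPM). None of these 30 genes had an unadjusted p under 0.05 by edgeR.

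None of the genes of the remaining lists passed after adjustment by edgeR. Of 13 genes for eIF2, its exchange factor eIF2B, its kinases and their partners, 2 had an unadjusted p under 0.05. Eif2b1, an eIF2B subunit gene, averaged 72.6 ± 12.9 CPM over wild type and 95.3 ± 12.9 CPM over KO libraries (log2 fold change 0.39, adjusted p = 0.792 by edgeR). Eif2ak2, the double-stranded RNA kinase PKR and an interferon-stimulated gene, was at 84.9 ± 18.2 and 60.0 ± 14.5 CPM (log2 fold change -0.50, adjusted p = 0.804 by edgeR). Eif2b3 gave 0.60, with 86.3 CPM in KO replicate 3 and 32.2 to 44.3 CPM in the other KO libraries.

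Of 30 further genes known as ATF4 targets 25 were tested, 11 above 0 and 14 below, with a median of -0.07 and none with an unadjusted p under 0.05. Eif4ebp1, a translation repressor gene, gave 0.33, Got1 gave -0.33 and Vegfa, at 2.26 ± 2.32 and 0.820 ± 0.502 CPM, gave -1.46. Fgf21, a hormone gene induced by ATF4 in other tissues, had 0 counts in all 8 libraries. Among 12 tested folate and glycine genes 9 lay above 0 with a median of 0.12; Tyms gave 0.25 and Mthfd2l gave -0.40. Of 8 tested genes of glutathione and methionine metabolism, Gclm, a subunit of the enzyme that limits glutathione synthesis, was at 70.7 to 89.1 CPM in wild type mice and 90.7 to 119 CPM in KO mice (log2 fold change 0.43, unadjusted p = 0.0136, adjusted p = 0.746 by edgeR). Mat2a, which makes S-adenosylmethionine, gave -0.36 (unadjusted p = 0.0444, adjusted p = 0.811), and Ggct gave 0.42. Mthfd2l and Cars, the transfer RNA synthetase gene for cysteine, stand in 2 of these lists each.

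**Figure D3:**
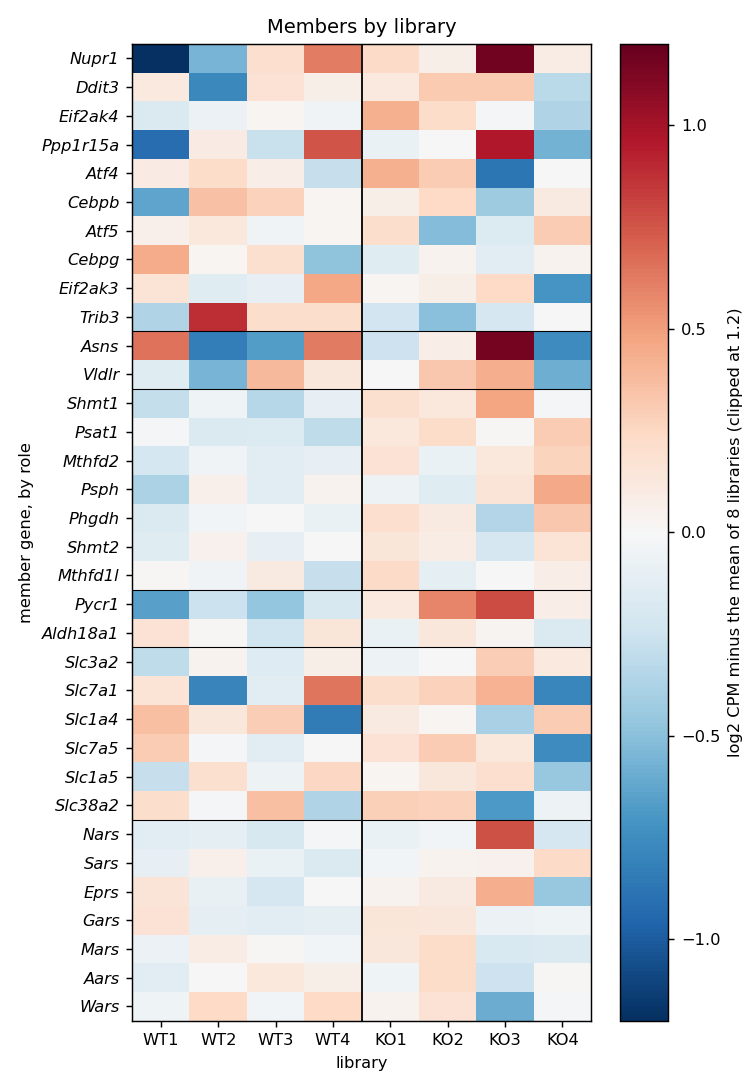
Log2 CPM of each tested gene in each library minus its mean over the 8 libraries; red is above the mean and blue below, with colours clipped at 1.2, rows grouped by role and a line between genotypes. KO replicate 3 holds the highest or lowest value of 16 of the 34 genes, while KO replicate 1 holds that of 3.

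The spread between mice of one genotype differed by role. The pooled within-genotype SD of log2 CPM had a median of 0.15 for the 7 serine, glycine and one-carbon genes and 0.16 for the 7 synthetases, against 0.33 for all tested genes. It was 0.38 for the 10 regulators and 0.38 for the 6 transporters. The roles also differ in level, and spread was not compared at matched level. Nupr1, Asns, Ppp1r15a and Slc7a1 were the most variable, at 0.84, 0.81, 0.67 and 0.58, and Asns had a larger spread than 92.4% of tested genes. Of these, Nupr1 was a low gene (2.83 CPM in wild type mice) and Ppp1r15a was not (110 CPM). Sars and Mthfd2, both at 0.11, were among the least variable.

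**Figure D4:**
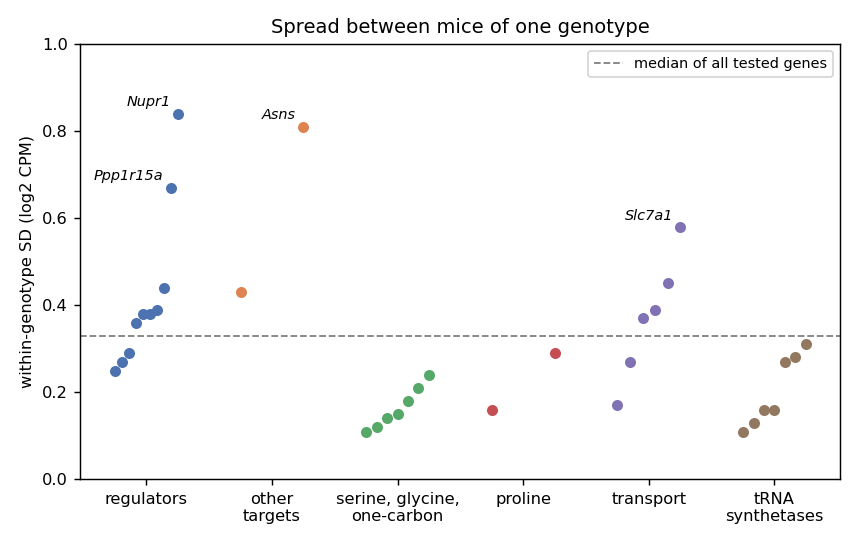
SD of log2 CPM between mice of one genotype, pooled over both genotypes, for each tested gene by role; the dashed line is the median of all tested genes, 0.33. All 7 serine, glycine and one-carbon genes and all 7 synthetases lie below the line, and Asns and Nupr1 lie above 0.8.

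Levels between genes were compared per kilobase of the longest principal transcript. On this scale Phgdh was the highest of the 38, at 302 CPM per kilobase over the 8 libraries, followed by Slc3a2 at 105, Atf4 at 99.6, Shmt2 at 95 and Nars at 91.5. Psat1 and Shmt1 stood at 61.1 and 36.8, Ddit3 at 30.9 and Asns at 13.2 CPM per kilobase. Pycr1, at 2.49, was the second lowest of the tested genes, above Slc1a4 at 0.985. The 4 genes that did not pass the filter were at most 0.218 CPM per kilobase. The stress-induced genes spanned a wide range, from Ppp1r15a at 41.4 through Trib3 at 5.23 to Chac1 at 0.218 CPM per kilobase.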

How the data were processed

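The authors deposited unnormalized counts of 26146 gene symbols in 8 libraries, 1 per mouse. Reads were aligned with HISAT2 to mm10, per the submitters' processing notes; how reads were counted, with which annotation and by strand or not, is not stated. Columns were matched to samples by genotype and replicate number. KO was compared with wild type over all 8 libraries by the quasi-likelihood test of edgeR 4.0.16 (R 4.3.3; TMM scaling; filterByExpr with min.count 10 and min.total.count 15; 13439 genes; Benjamini-Hochberg adjustment over all of them), with no covariate. SEs and 95% intervals come from this fit. Within-genotype SDs use log2 CPM with a prior count of 2. Replicates differed by more than sampling noise (chi-square over its degrees of freedom, 6.89 to 93.47). The fit was tested on simulated counts. Alternatives were other scalings and filters, DESeq2 1.42.0, limma 3.58.1 voom with sample weights, a replicate block and leaving out each library; 2 were chosen after seeing the data, a fit of the 6 libraries that have Y-linked counts and removal of a loess trend on transcript length and level.

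The gene list and the other lists were chosen with earlier results of these data known. Every listed gene is accounted for. Values per library are given for Atf4, Asns, Ddit3, Trib3, Chac1, Phgdh and Psat1. Within the main list they are also given for genes with an unadjusted p under 0.05 and for the lowest p of each role. Slc7a11 and, outside the main list, Ass1 are also given by library. Cth and Aldh1l2 are given by summed counts, and others by mean, fold change or range. Up to 3 genes of smallest p are named from each further list, and Pycrl, Kit, Cd34, Ly6a and Fgf21 were named after their values were seen. Positions and transcript lengths come from GENCODE M21 and promoters from RefSeq GRCm38.p6. Proteins were not used here, and a few items are not reported here.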

Additional observations from a re-analysis of the deposited data

Results flagged for a closer look

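In 4 of 68 groups of 4 libraries (34 genes in 2 genotypes) a single library stood apart from the other 3 by more than Dixon's 95% limit on the gap over the range; chance gives about 1 in 20. Ddit3 was 15.6 CPM in wild type replicate 2 with the other 3 between 28.1 and 30.2 CPM. Gars was 191 CPM in wild type replicate 1 against 155 to 158 CPM. Nupr1 was 7.17 CPM in KO replicate 3 against 3.29 to 3.70 CPM, and Nars was 416 CPM in the same library against 214 to 240 CPM.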

How the results depend on the processing

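No member passed an adjusted p of 0.05 under any of the 16 alternatives with a test, and the median log2 fold change stayed between 0.05 and 0.12. The 8 calls over all genes were 66 by DESeq2, 31 by limma voom, 4 among the 6 libraries with Y-linked counts and 2 to 8 with single libraries left out. The count of members with an unadjusted p under 0.05 was 1 to 3 with single libraries left out, not always of the same genes. Jmjd6 gave -1.06 to -0.99 on the log2 scale with single libraries left out, with adjusted p by edgeR from 0.0401 to 0.254 and the call held only without KO replicate 3; it was -1.02 (adjusted p = 0.105) in the 6 libraries. With the replicate block there were 3 calls over all genes and 1 member with an unadjusted p under 0.05, and Jmjd6 gave -1.02 (adjusted p = 0.402). Same-numbered libraries did not deviate together (correlations 0.032, -0.012, -0.184 and -0.192; none of the 4 pairs was the best match), so they share only a number.

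Of 34 members 16 kept their sign under every setting, Psat1, Shmt1, Pycr1, Phgdh and Trib3 among them. The signs of small values changed. With library size only, Atf4, Slc7a1 and Mars gave -0.05, -0.01 and -0.05. With no filter, Atf4 and Mars gave -0.01 each, and with the replicate block Atf4, Slc1a4 and Mars gave -0.06, 0.02 and -0.01. By limma voom Cebpb, Aldh18a1, Slc7a5, Slc1a4, Slc1a5, Slc38a2, Aars and Wars gave 0.06, 0.07, 0.15, 0.05, 0.05, 0.07, 0.03 and 0.02. In the 6 libraries Cebpb, Asns, Aars, Wars and Eprs gave 0.07, -0.15, 0.06, 0.01 and -0.04. With the trend on length and level removed, Atf4, Ddit3, Slc7a5, Slc1a4, Aars and Mars gave -0.12, -0.03, 0.06, 0.14, 0.06 and -0.02. With single libraries left out the ranges that crossed 0 were -0.13 to 0.22 for Atf4, -0.18 to 0.10 for Atf5, -0.20 to 0.08 for Cebpb, -0.28 to 0.03 for Cebpg, -0.24 to 0.50 for Ppp1r15a, -0.38 to 0.39 for Asns, -0.05 to 0.27 for Vldlr and -0.13 to 0.02 for Aldh18a1. They were -0.16 to 0.31 for Slc7a1, -0.12 to 0.16 for Slc7a5, -0.24 to 0.12 for Slc1a4, -0.12 to 0.08 for Slc1a5, -0.19 to 0.11 for Slc38a2, -0.10 to 0.04 for Aars, -0.05 to 0.06 for Mars and -0.05 to 0.23 for Eprs. The cause of these changes was not tested.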
